A study of Mus musculus with 20 samples.

Results

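Voltage-gated sodium channel genes were followed in Trpv1 neurons sorted from mouse dorsal root ganglia (DRG), the clusters of sensory neuron cell bodies beside the spinal cord. The 9 genes were taken by Ensembl identifier from a list of channel subunits, by name and not by a threshold on their values, out of 37620 genes listed in the expression table. The list holds 6 alpha subunits, of which 2 are classed as resistant to tetrodotoxin (TTX), Scn10a and Scn11a, and 3 as sensitive to it, Scn9a, Scn8a and Scn3a, while Scn7a is an atypical channel known from glia. The other 3, Scn2b, Scn3b and Scn4b, encode beta subunits. All 9 had a value in each of the 20 libraries and all 9 passed the filter on low values.

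The study compared Trpv1 neurons of lumbar DRG (L4-5) with those of sacral DRG (L6-S1), where many neurons that innervate pelvic organs lie, and compared males with females. The 4 groups were male lumbar, male sacral, female lumbar and female sacral, with 5 libraries each and 1 lumbar and 1 sacral library per donor. Donors are called M1 to M5 (male) and F1 to F5 (female). Mice of every group were homozygous for Trpv1tm2Bbm and 6 to 8 weeks old. This allele places the reporters PLAP and nuclear LacZ under control of the Trpv1 locus, and cells were sorted as the brightest of those in which β-galactosidase had turned the substrate DDAOG into DDAO. Each title carries 2 animal numbers, whereas the methods speak of single mice, so whether cells of 2 animals were pooled is not known. A value here is log2 RPKM, in which a gene's reads are divided by its length and by a scale factor of the library before the log is taken. Levels can thus be compared between genes and, within that scaling, between libraries. All libraries share a median of 0.93, and their offsets from scaling to total reads differ, so the factor was not the total of reads alone.

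Between 44003509 and 66608375 reads fell on genes per library, as worked back from the deposited values, and 20720 to 22507 genes had a value. Trpv1 itself was present in all libraries, at 3.74 ± 0.41 log2 RPKM in lumbar and 4.70 ± 0.35 in sacral libraries (SD, n = 10 each). Markers of other cells were also present. The mean of 12 markers of satellite glia and Schwann cells was 5.91 ± 0.37 log2 RPKM in lumbar and 4.93 ± 0.45 in sacral libraries (SD, n = 10 each), and it was higher in lumbar in 10 of 10 donors. Sorted populations were sequenced in bulk, so fewer cells of a type and less RNA per cell cannot be told apart.

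Sodium channel alpha subunits form the pore that opens on depolarization and carries the rising phase of the action potential, and beta subunits are single-pass proteins that adjust the gating and surface density of the alpha subunit. Nociceptors are known for combining Scn9a (Nav1.7), which amplifies small depolarizations near threshold, with Scn10a (Nav1.8), which carries most of the spike's inward current, and Scn11a (Nav1.9), which gives a slow persistent current near rest. TTX blocks most neuronal channels from the outside of the pore, and Nav1.8 and Nav1.9 escape it because of a single residue in the pore loop of the first domain.

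That residue and its surroundings are shown first, because the grouping used throughout rests on them. Each line below is 27 bases of coding sequence of the NCBIM37 genome (mm9), read 5′ to 3′ on the gene's own strand, and the capitals mark the codon at the TTX site.
Scn10a: ctcatgacgcaggacTCCtgggaacgg
Scn11a: gttatgactcaagacTCCtgggagaag
Scn9a: ctaatgactcaggacTACtgggagaac
Scn8a: ctcatgactcaggacTACtgggagaac
Scn3a: ctcatgactcaagacTACtgggagaac
Scn7a: ttgatgacacaggatTACcctgaatta
TCC encodes serine and TAC tyrosine, so the 2 resistant channels carry serine at this site and the 3 sensitive channels tyrosine. Scn7a also carries a tyrosine codon there, but its surroundings differ most, with 11 of 27 bases unlike those of Scn10a against 6 to 7 for the other 4. The Scn10a stretch lies at chr9:119575496-119575522 in transcript exon 8 of 27 on the minus strand, and that of Scn9a at chr2:66387049-66387075 in transcript exon 9 of 27 on the minus strand.

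The genes lie in clusters. Scn3a (chr2:65295175-65405684), Scn9a (chr2:66318137-66473009) and Scn7a (chr2:66511482-66622971) share a region of chromosome 2, all on the minus strand. Scn11a (chr9:119662881-119734574) and Scn10a (chr9:119517584-119603478) are neighbors on the minus strand of chromosome 9. Scn2b (chr9:44925959-44938153) and Scn4b (chr9:44946520-44962235) are neighbors on the plus strand of the same chromosome, which also holds Scn3b (chr9:40076801-40099203, plus strand). Scn8a lies alone at chr15:100785829-100876360 on the plus strand. A separate annotated model, also named Scn8a, lies upstream of that span at chr15:100763860-100771229 and held at most 36 reads in a library, so it was not added to the value. Counting was not stated to use the strand. The span of Scn9a overlaps Gm13627 on its own strand and Gm13629 and 7SK on the other. That of Scn3a overlaps Gm13595 and that of Scn2b Gm10684, both on the opposite strand. In the annotation used here, exons overlap only between Scn9a and Gm13629, so reads of that stretch cannot be told apart.

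Over all 20 libraries Scn10a was the most abundant member, with a mean level of 6.04 ± 0.65 log2 RPKM (SD, n = 20). Scn7a followed at 5.90 ± 0.49 and Scn11a at 5.84 ± 0.76. Neither Scn10a and Scn7a (adjusted p = 0.19) nor Scn7a and Scn11a (adjusted p = 0.56) differed in level beyond the spread between donors, by an exact sign-flip permutation test over 10 donors, two-sided, adjusted over the 8 pairs of neighbors in the order. The order of Scn7a and Scn11a turned with the level, with Scn7a minus Scn11a at 0.26 in lumbar and -0.14 in sacral libraries on the log2 scale. Next came Scn9a at 5.28 ± 0.67, Scn3b at 4.89 ± 0.33, Scn2b at 3.51 ± 0.55, Scn4b at 2.13 ± 0.49, Scn8a at 1.99 ± 0.44 and Scn3a at -0.33 ± 0.52 (SD, n = 20 each). Each of these 6 differed from the neighbor above it in the same exact permutation test (adjusted p = 0.0039 to 0.0078; the lowest unadjusted p, 0.0020, is the smallest that 10 donors allow). The closest of the 6 pairs was Scn4b and Scn8a, 0.14 ± 0.12 apart on the log2 scale (SD, n = 10), with Scn4b above in 9 of 10 donors. That order holds for the mean of a donor's 2 libraries and turned between single libraries. The log2 ratio of Scn8a to Scn4b ran from -0.74 to 0.39 in lumbar and from -0.63 to 0.36 in sacral libraries. Scn8a (Nav1.6), the main channel of nodes of Ranvier, and Scn3a (Nav1.3), known as an embryonic channel that returns after nerve injury, were thus the least abundant alpha members. Reads per library ranged from 6613 to 52779 for Scn10a and from 150 to 925 for Scn3a, so counting error was small for the first and larger for the second.

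Of the 9 members, 7 were higher in sacral than in lumbar Trpv1 neurons and 0 were higher in lumbar, at an adjusted p of at most 0.05 (limma with donor as a random block, Benjamini-Hochberg over 16304 genes). With the glial marker mean of each library as a covariate, 0 of the 9 were called, against 0.71% of all genes tested (116 of 16304). In that fit the differences of the 7, lumbar minus sacral on the log2 scale, lay between -0.17 and -0.66. The first was that of Scn10a, at -0.94 without the covariate, and the second that of Scn3a, at -0.76 without it. The 7 comprised both TTX-resistant genes, Scn9a and Scn3a among the 3 TTX-sensitive genes, Scn7a, and Scn2b and Scn3b among the 3 beta genes. By the same rule without the covariate 45.6% of all genes tested were called, 30.3% higher in sacral and 15.3% higher in lumbar (4947 and 2489 genes). That split moved with the scaling, to 3572 and 3437 genes with TMM factors, 3742 and 3039 with quantile normalization and 9598 and 1308 with scaling to total reads, while the 7 members were called in the same direction under each. The median difference, given throughout as lumbar minus sacral on the log2 scale so that values below 0 mean higher in sacral, was -0.79 over the 9 members and -0.11 over all genes tested. Within donors, all 10 differences of each of these 7 genes pointed to sacral, a pattern that 14.6% of the 15318 genes with a value in every library showed.

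**Figure D1:**
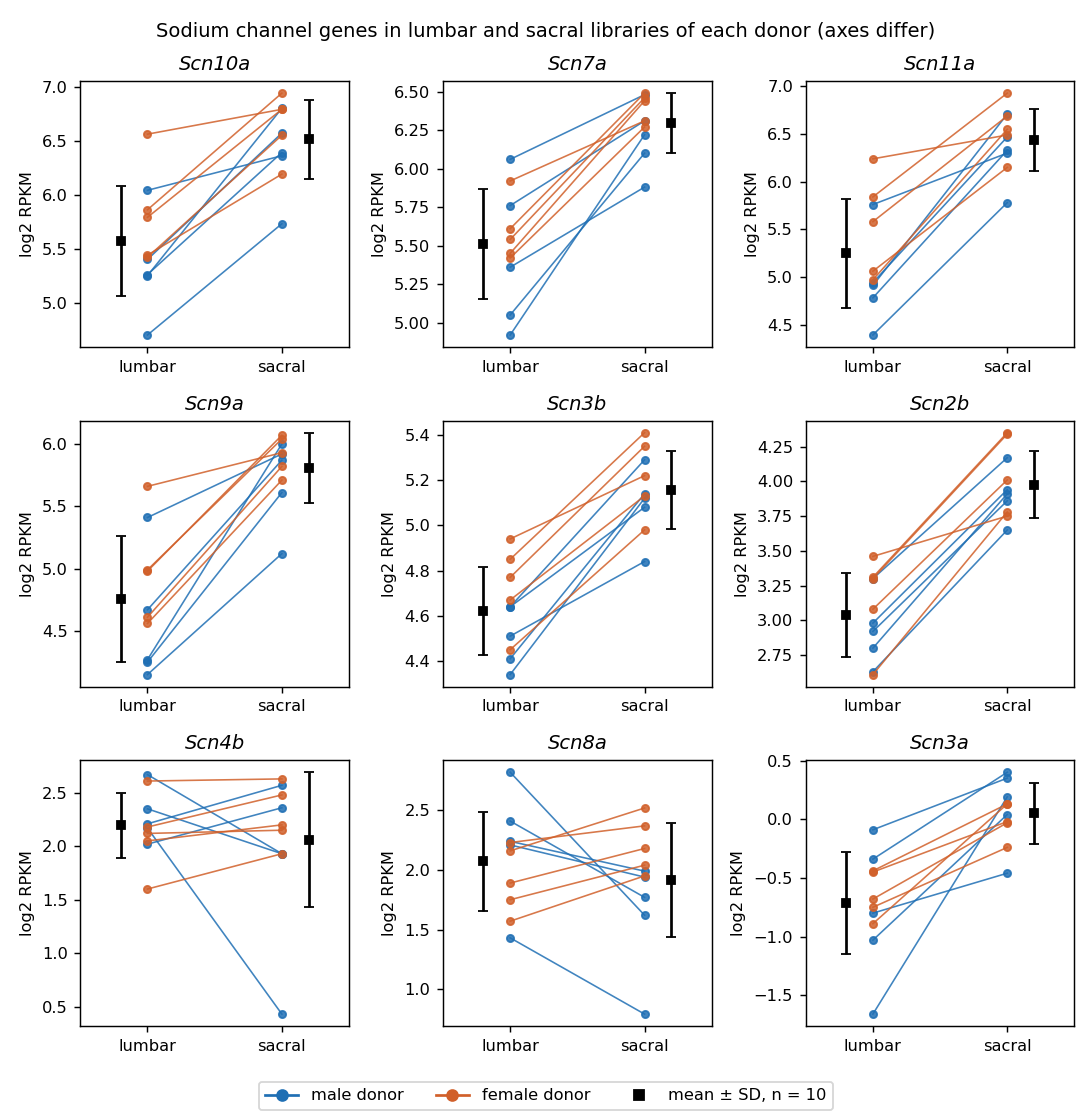
Level of each sodium channel gene in log2 RPKM (vertical axis, its range set for each gene) in the lumbar and sacral library of each donor, joined by a line, with males in blue, females in orange and black squares for the mean ± SD of 10 libraries. Every line rises from lumbar to sacral for 7 genes, whereas lines of Scn4b and Scn8a run both ways.

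Among the TTX-resistant genes, Scn10a spanned 4.70 to 6.56 log2 RPKM in lumbar libraries, with a median of 5.43, and 5.73 to 6.94 in sacral libraries, with a median of 6.56. The levels overlapped, with M2 the lowest donor at both levels and F2 the highest in lumbar. Scn10a was 1.92-fold higher in sacral libraries (-0.94, SE 0.15, adjusted p = 4.81e-05). Its donor differences ran from -0.22 in F2 to -1.56 in M5.

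Scn11a, the neighboring gene, had the widest difference of the 9. Its lumbar levels were 4.39 to 6.24 log2 RPKM, with a median of 5.02, and its sacral levels 5.78 to 6.93, with a median of 6.48. Only 2 lumbar libraries lay above the lowest sacral library, M2. The level was 2.28-fold higher in sacral libraries (-1.19, SE 0.15, adjusted p = 7.58e-06), with donor differences from -0.25 (F2) to -1.80 (M5). Within a library, the log2 ratio of Scn10a to Scn11a RPKM was 0.33 ± 0.14 in lumbar and 0.07 ± 0.09 in sacral libraries (SD, n = 10 each), and it was lower in sacral in each of the 10 donors, so the 2 resistant channels were nearer to equal there. This ratio does not depend on the scaling between libraries.

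Scn9a, the most abundant of the TTX-sensitive genes, lay between 4.15 and 5.66 log2 RPKM in lumbar libraries, with a median of 4.64. Its sacral levels were 5.12 to 6.07, with a median of 5.90. The lowest sacral library, again that of M2, was exceeded by 2 lumbar libraries. The gene was 2.08-fold higher in sacral libraries (-1.06, SE 0.14, adjusted p = 1.07e-05).

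Scn3a was scarce in all libraries. Lumbar levels ran from -1.66 in M5 to -0.09 in M3, with a median of -0.72, and sacral levels from -0.46 in M2 to 0.40 in M1, with a median of 0.09. The levels overlapped in 4 lumbar libraries. Scn3a was 1.7-fold higher in sacral libraries (-0.76, SE 0.18, adjusted p = 0.0014), and M5 had the widest donor difference at -1.84. In the 5 female donors taken alone the difference was -0.64 and did not pass (adjusted p = 0.052, limma).

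Scn8a did not pass the test between levels. It spanned 1.43 to 2.82 log2 RPKM in lumbar libraries, with a median of 2.19, and 0.79 to 2.52 in sacral libraries, with a median of 1.97, so the groups overlapped throughout. The difference was 0.15 (SE 0.14, 95% confidence interval -0.15 to 0.45, adjusted p = 0.40), and donors divided 5 to 5.

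Scn7a (Nax), a channel that voltage gates weakly and that is known as a sodium sensor in glia of the brain and from nonmyelinating Schwann cells as well as sensory neurons, was higher in sacral libraries. Its lumbar levels ranged from 4.92 to 6.06 log2 RPKM, with a median of 5.50, and its sacral levels from 5.88 to 6.49, with a median of 6.31. The lowest sacral library, that of M4, had 2 lumbar libraries above it. The difference was 1.73-fold (-0.79, SE 0.11, adjusted p = 1.23e-05). Glial markers pointed the other way: of the 6 satellite glia and 6 Schwann cell markers, 11 were higher in lumbar and none in sacral, with Sox10 at 1.40 (SE 0.16) and Fabp7 at 1.38 (SE 0.18), lumbar minus sacral on the log2 scale.

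The beta genes did not move alike. Scn2b, whose product is bound to the alpha subunit by a disulfide bond, was the only member whose levels did not overlap. Lumbar levels ran from 2.61 to 3.46 log2 RPKM, with a median of 3.03, and sacral levels from 3.65 to 4.35, with a median of 3.92. Sacral libraries without overlap above lumbar ones were found for 1.34% of the 15318 genes with a value in every library. Scn2b was 1.92-fold higher in sacral libraries (-0.94, SE 0.10, adjusted p = 1.52e-06), and apart from F2 at -0.30 the donor differences lay between -0.87 and -1.17.

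Scn3b, the most abundant beta gene, had the smallest difference of the 7 and the smallest SD of the 9 at each level (0.20 in lumbar and 0.17 in sacral libraries). It ran from 4.34 to 4.94 log2 RPKM in lumbar libraries, with a median of 4.64, and from 4.84 to 5.41 in sacral libraries, with a median of 5.13. It was 1.45-fold higher in sacral libraries (-0.54, SE 0.07, adjusted p = 8.62e-06).

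Scn4b, whose product is known for a cytoplasmic tail that can block open channels and give resurgent current, did not pass. Its lumbar levels were 1.6 to 2.67 log2 RPKM, with a median of 2.17, and its sacral levels 0.43 to 2.63, with a median of 2.18. The lowest value belonged to the sacral library of M2, and the other 9 sacral libraries lay within the range that lumbar libraries covered. The difference was 0.14 (SE 0.18, 95% confidence interval -0.24 to 0.52, adjusted p = 0.56), higher in sacral in 7 of 10 donors. M2 alone differed by 1.74, and without M2 the difference was -0.025 (adjusted p = 0.89, limma).

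**Figure D2:**
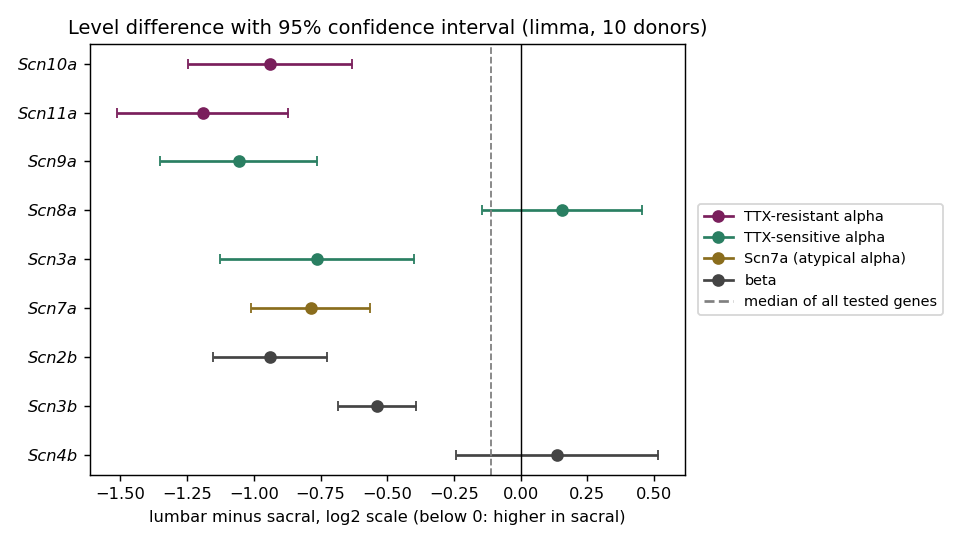
Difference between levels for each gene, lumbar minus sacral on the log2 scale (horizontal axis), with 95% confidence intervals from limma over 10 donors, colored by subunit class. The dashed line is the median of all genes tested, at -0.11; intervals of 7 genes lie wholly to its left, and those of Scn8a and Scn4b include 0.

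Because several genes rose together, the makeup of the channel pool was described as shares of summed RPKM within each library. The 6 alpha genes summed to 172 ± 55 RPKM in lumbar and 324 ± 56 RPKM in sacral libraries (SD, n = 10 each). The TTX-resistant pair held 52.4 ± 5.2% of this sum in lumbar and 56.0 ± 3.5% in sacral libraries, higher in sacral in 7 of 10 donors. The TTX-sensitive genes held 19.5 ± 1.0% and 19.2 ± 1.2%, and Scn7a held 28.1 ± 5.2% and 24.8 ± 3.5% (SD, n = 10 each). Each class share moved by less than its SD between lumbar libraries.

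Among single genes, the share of Scn11a moved by more than any class share and those of Scn10a, Scn9a and Scn3a by less than their SDs between lumbar libraries. Scn8a held 2.69 ± 0.93% of the alpha sum in lumbar and 1.21 ± 0.26% in sacral libraries, lower in sacral in all 10 donors. A share also falls when the rest of its sum rises, and the level of Scn8a itself was higher in sacral in 5 of 10 donors, the females. Scn11a went from 23.3 ± 3.2% to 27.3 ± 1.6%, higher in 9 of 10, while Scn10a stayed at 29.1 ± 2.4% and 28.7 ± 2.3% (SD, n = 10 each). The log2 ratio of Scn10a to Scn8a was 3.50 ± 0.56 in lumbar and 4.59 ± 0.30 in sacral libraries, higher in sacral in 10 of 10 donors.

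The beta genes summed to 37.9 ± 5.2 RPKM in lumbar and 56.3 ± 7.2 RPKM in sacral libraries (SD, n = 10 each). Scn2b made up 22.0 ± 2.2% of this sum in lumbar and 28.3 ± 2.9% in sacral libraries, and Scn4b 12.4 ± 2.5% and 7.87 ± 2.34%. The share of Scn2b was higher in sacral in 10 of 10 donors, and that of Scn4b was lower in 10 of 10. Shares of 1 sum offset one another, and the level of Scn4b itself was higher in sacral in 7 of 10 donors. Scn3b kept most of the sum at both levels, with 65.6 ± 3.5% and 63.9 ± 1.6%. These shares are descriptions and were not tested.

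**Figure D3:**
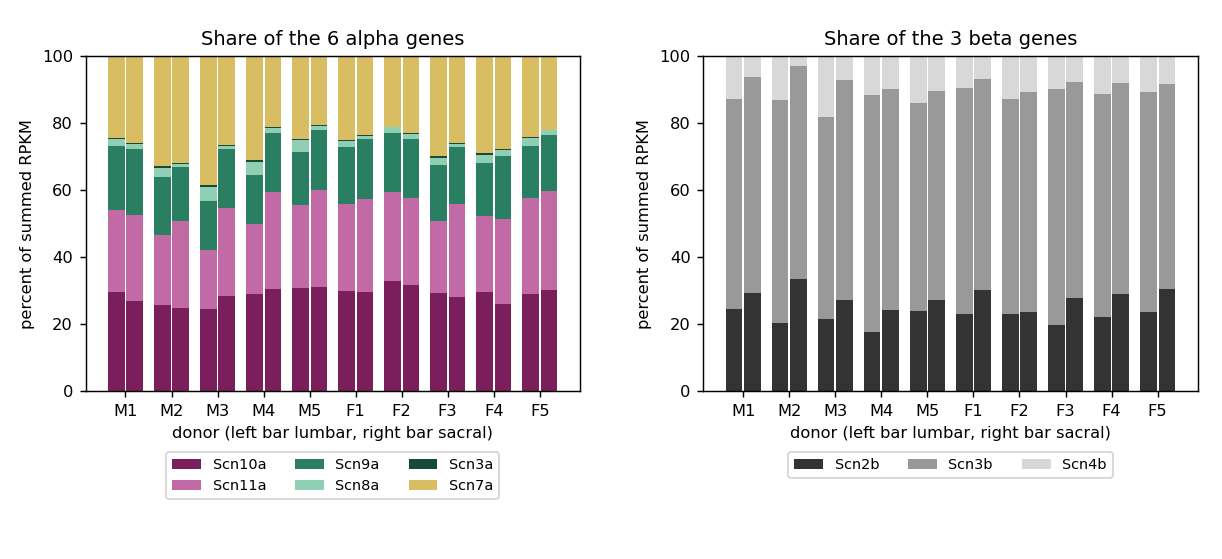
Share of each gene in the summed RPKM of the 6 alpha genes (left) and of the 3 beta genes (right), in percent, for each donor's lumbar (left bar) and sacral (right bar) library. Scn8a is a thinner band in every sacral bar (0.810 to 1.62%), and the Scn2b band is taller in every sacral bar than in the lumbar bar beside it.

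No member differed between females and males in lumbar or in sacral libraries, and for none did the level difference depend on sex, at an adjusted p of at most 0.05 (limma). By that rule 0.0427% of genes were called in lumbar, 0.0368% in sacral and 0% for the interaction. At an unadjusted p under 0.05, Scn10a, Scn11a and Scn3b passed in lumbar, all higher in females, against 11.4% of all genes, and Scn8a passed in sacral, against 8.09% of all genes. The interaction passed for Scn8a alone, against 4.1% of all genes, and voom on the worked-back reads also called 0 of 9 in each of these 3 comparisons. The female minus male differences of the 3 in lumbar were 0.49 (SE 0.23), 0.58 (SE 0.24) and 0.23 (SE 0.11) on the log2 scale. This count of 3 rested on single donors, since it was 0 without F2 or F5, 1 without M2, M4, M5 or F1, 2 without M3, 4 without M1 and 5 without F3.

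Scn8a was the member whose donors divided by sex. All 5 males were higher in lumbar, by 0.60 ± 0.39 (SD, n = 5), with M1 at 0.25, M5 at 0.27, M2 at 0.64, M4 at 0.64 and M3 at 1.21. All 5 females were higher in sacral, with differences of -0.29 ± 0.09 (SD, n = 5) between -0.38 in F3 and -0.15 in F2. Male and female differences did not overlap, which is the pattern that singled Scn8a out, so no test is given for it. In the fit across all genes the interaction was 0.89 (SE 0.29, unadjusted p = 0.0055, adjusted p = 0.96, limma), which does not pass. The same division by sex was found for 7 of 15318 genes (0.0457%), and the division in either direction for 11 (0.0718%). In sacral libraries Scn8a was 1.62 ± 0.49 log2 RPKM in males and 2.21 ± 0.23 in females, and in lumbar libraries 2.22 ± 0.51 and 1.92 ± 0.28 (SD, n = 5 each).

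**Figure D4:**
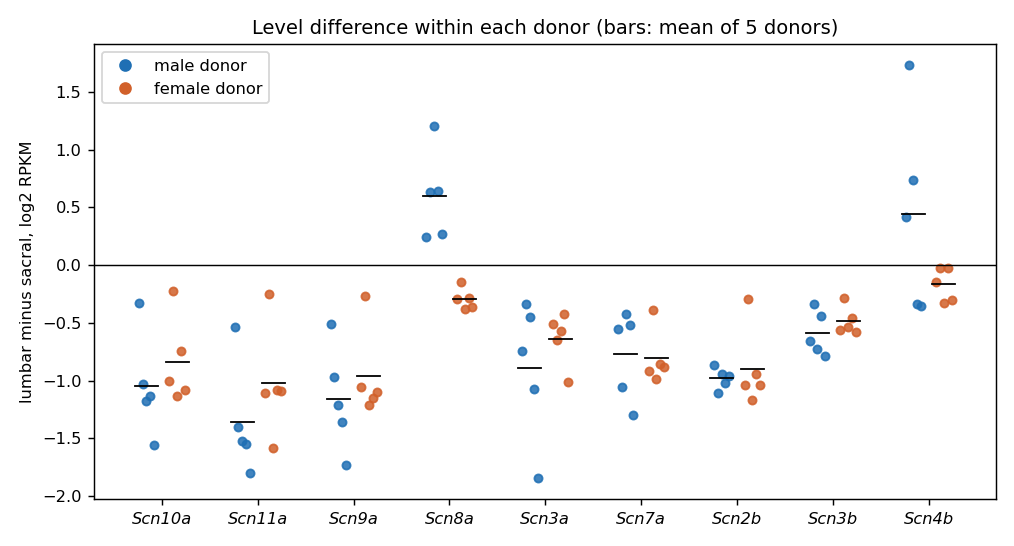
Difference between the lumbar and sacral library of each donor in log2 RPKM (vertical axis; below 0 means higher in sacral) for each gene, with males in blue, females in orange and a bar at the mean of 5 donors. Males and females lie on opposite sides of 0 for Scn8a, the 10 donors of 7 genes lie below 0, and M2 stands at 1.74 for Scn4b.

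Genes whose pattern over the 20 libraries was most like that of 4 abundant alpha members were found by the root mean square difference of log2 levels after each gene's mean was subtracted, among 15317 genes. For Scn9a they were L1cam (0.12), a neuronal adhesion molecule, Mtap1a (0.12), a microtubule-associated protein, and Slc7a14 (0.12), where the median gene stood at 0.67. Scn10a was nearest to Ret (0.13), a receptor of GDNF family ligands in nociceptors, then L1cam (0.14) and Fam38b (0.15), the older symbol of the mechanically gated channel Piezo2, with the median gene at 0.66. Scn11a was nearest to Tro (0.14), Scn10a (0.17) and Abca5 (0.17). Scn7a was nearest to 6330439K17Rik (0.15), Sgip1 (0.16) and Ahi1 (0.16), with the median gene at 0.52. Among the members, Scn9a had rank 5 of 15317 genes in likeness to Scn10a (0.15), whereas Scn8a (0.69) and Scn4b (0.68) were less like it than the median gene. All 20 libraries share the division into lumbar and sacral, which enters each of these values.

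Partners of the channels were read from a list of 24 genes that anchor, modify or accompany sodium channels, of which 23 could be tested and Scn4a lay below the filter. In sacral 15 were higher, in lumbar 1, and 7 did not pass, against 30.3% and 15.3% of all genes. The median difference over the 23 was -0.39. The 5 with the widest differences toward sacral in all 10 donors were Nalcn, the sodium leak channel, at -0.87 (SE 0.13), Fgf12, an intracellular FGF that binds the channel's tail, at -0.64 (SE 0.09), Nedd4l, a ubiquitin ligase that removes channels from the membrane, at -0.62 (SE 0.13), Nrcam, an adhesion molecule of nodes, at -0.60 (SE 0.09), and Cntnap1, an adhesion molecule of paranodes, at -0.57 (SE 0.13). The gene higher in lumbar was Fgf11, of the same family as Fgf12, at 1.02 (SE 0.21, adjusted p = 5e-04, limma), in 10 of 10 donors. The scaffold Ank3 (ankyrin-G), which holds channels at the axon initial segment, was 5.27 ± 0.26 log2 RPKM in lumbar and 5.36 ± 0.14 in sacral libraries (SD, n = 10 each) and did not pass (adjusted p = 0.34, limma).

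Markers of other cells also differed between levels. All 6 satellite glia markers and 5 of 6 Schwann cell markers were higher in lumbar, as were 2 of 3 macrophage markers tested, 5 of 6 endothelial and 4 of 6 fibroblast markers, and no marker of these lists was higher in sacral. The summed level of the satellite glia list was 1049 to 2523 RPKM in lumbar and 542 to 1153 RPKM in sacral libraries, and that of the Schwann cell list 718 to 1583 and 699 to 1168 RPKM. Summed levels were 6.81 to 34.9 and 2.91 to 8.52 RPKM for macrophage markers, 8.56 to 54.4 and 7.33 to 29.2 RPKM for endothelial markers, and 72.0 to 325 and 78.3 to 179 RPKM for fibroblast markers. The fibroblast sum had a higher median in sacral (121 RPKM) than in lumbar libraries (102 RPKM) and was higher in lumbar in 4 of 10 donors. C1qa was listed with no value in 7 of 20 libraries, and no other marker of these lists was empty in any.

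Nociceptor markers moved with the members. Trpv1, Prph and Isl1 were higher in sacral, and Calca and Tac1 did not pass. Of 4 markers of non-peptidergic nociceptors, P2rx3, Ret and Gfra2 were higher in sacral, against 30.3% of all genes, and Mrgprd did not pass (-0.51, SE 0.33, adjusted p = 0.21, limma). Large myelinated neurons, known for Scn8a and Scn4b, were represented by 6 markers, of which Pvalb at 2.11 (SE 0.59) and Kcna1 at 0.50 (SE 0.18) were higher in lumbar, none was higher in sacral and Runx3 lay below the filter. Pvalb had no value in 2 sacral libraries and at most 113 reads.

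With the glial marker mean of each library as a covariate, 0 of the 9 members were called between levels (limma), against 116 of 16304 genes, and 5 of the 9 had an unadjusted p under 0.05. The 7 genes kept their direction, with differences from -0.17 for Scn10a (95% confidence interval -0.63 to 0.28) to -0.66 for Scn3a (95% confidence interval -1.38 to 0.06). For Scn2b the difference was -0.49 (95% confidence interval -0.84 to -0.14), with an unadjusted p of 0.0090 and an adjusted p of 0.25 (limma). Scn8a stood at 0.73 (95% confidence interval 0.21 to 1.26, unadjusted p = 0.0087, adjusted p = 0.25, limma) and Scn4b at 0.83 (95% confidence interval 0.17 to 1.48, unadjusted p = 0.016, adjusted p = 0.30, limma), toward lumbar, so the 5 genes with an unadjusted p under 0.05 included these 2 beside Scn7a, Scn2b and Scn3b. The glial marker mean and the level of the ganglion moved together in all 10 donors, so their parts in the members' differences cannot be told apart.

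**Figure D5:**
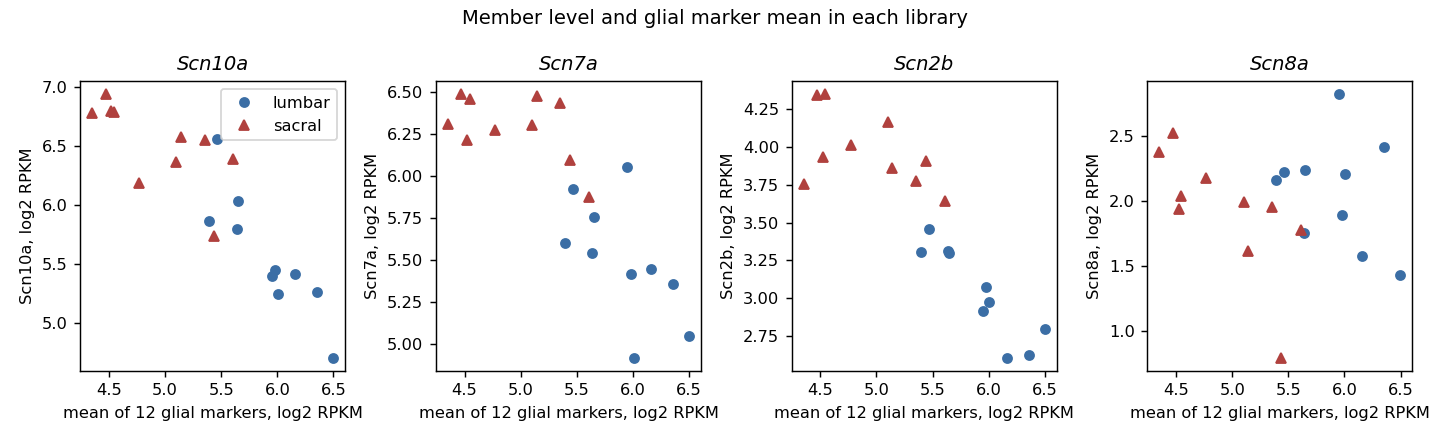
Level of Scn10a, Scn7a, Scn2b and Scn8a in log2 RPKM (vertical axes) against the mean of 12 glial markers in log2 RPKM (horizontal axes), with each point a library, circles lumbar and triangles sacral. Lumbar libraries span 5.39 to 6.50 and sacral libraries 4.35 to 5.61 on the horizontal axis, so the levels overlap there, and the Scn2b values of the levels do not overlap on the vertical axis.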

How the data were processed

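RNA of sorted Trpv1 neurons was sequenced in 20 libraries of 10 donors. The authors aligned reads to mm9 with Subread, assigned them to Ensembl genes by featureCounts, and normalized with TMM in edgeR 3.12.1 and voom in limma 3.26.9. The deposited values are log2 RPKM, from -9.97 to 18.27, with a common median of 0.93 per library and an empty cell where no read was counted. Columns of other samples numbered 0.

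Symbols and positions came from the NCBIM37 annotation (37205 of 37620 identifiers matched), which is older than the release used for counting. Whole reads were worked back from the steps of low values, within 0.01 of a read for 430238 of 430293 values, and served for depth, for other scalings and for voom, which called 7024 genes between levels. Depth was 44003509 to 66608375 reads per library, and counting error is the only error it describes.

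Genes with a mean log2 RPKM above -1 in at least 1 group of at least 3 values entered limma 3.58.1 (R 4.3.3, statmod 1.5.0) with 4 group means, donor as a random block (correlation 0.17), variances moderated along a trend with expression, and Benjamini-Hochberg adjusted p-values called at 0.05. No pseudocount was added. Python 3.11.15 with scipy 1.17.1 gave the exact permutation tests, and the fit was tested on simulated data. Libraries were paired by the animal numbers in their titles. Deviations from group means correlated at 0.18 on average within donors (0.04 to 0.30) and at -0.04 between donors of a sex (-0.37 to 0.33). The ranges overlap, and subtracting group means largely ties the 2 averages to each other. Whether donors with 2 numbers are separate animals or pools is not stated, so p-values measure the spread between these samples.

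The members were listed by name, and they and all lists were chosen with earlier results of these data known. Named were the 9 members, up to 5 partner genes per direction with the widest called difference in all 10 donors, the 3 genes most like each of 4 members, and markers. Alternatives were other filters, pseudocounts of 1 and 0.1, scalings, donor models, weights, single sexes, a glial covariate and each donor left out. Some items are not reported here.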

Additional observations from a re-analysis of the deposited data

Results flagged for a closer look

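Scn8a was the only member with level differences of opposite sign in every male and every female donor. The male minus female difference of the lumbar minus sacral values was 0.89 on the log2 scale, with 5 of 5 males higher in lumbar and 5 of 5 females higher in sacral. This opposite pattern singled the gene out and was not tested by itself. The adjusted p of the interaction over all genes was 0.96 in the fit with donor as a random block and 0.56 with donor as a fixed effect (unadjusted p = 6.6e-04, limma). The interaction ranged from 0.81 with scaling to total reads to 0.90 with TMM factors among the scalings tried. No library stood apart from the others of its group by Dixon's criterion in the 36 groups of 5 formed by the 9 members.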

How the results depend on the processing

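The 7 calls between levels and their direction held under each of the 25 alternatives apart from the glial covariate and females alone. The glial covariate left 0 of 9 called, against 0.71% of all genes. Females alone left 6 of 9, against 22.3% of all genes, with Scn3a at an adjusted p of 0.052 (limma). With any donor left out, 7 of 9 were called, against 40.5% (without M5) to 45.8% (without F2) of all genes. The cause of the loss under the glial covariate was not tested. Only members that were not called changed sign. Scn8a stood at -0.17 with scaling to total worked-back reads and at -0.29 in females alone, and Scn4b at -0.19 and -0.16 in the same settings and at -0.025 without donor M2, where leaving out other donors gave up to 0.24. Scaling to total reads moved the median of all genes from -0.11 to -0.43 and TMM factors moved it to 0.00. The 7 called members lay between -0.86 and -1.52 with total reads, all further toward sacral than that median.

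Without the replicate block 7 of 9 members and 6577 genes were called, and with the replicate block as a fixed effect 7 of 9 members and 7147 genes, so the pairing changed no call of a member. No sex comparison within a level can be had with donor as a fixed effect. The sex comparisons and the interaction called 0 members under each alternative that was run. The number of distinguished neighbors in the order of levels stayed at 6 under both pseudocounts and with each donor left out. The TTX-resistant share, higher in sacral by 3.63 percentage points, ranged from 2.64 to 4.21 with a donor left out, an alternative chosen after seeing the data.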

Other observations

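Other alpha subunit genes are given here, chosen after their values were seen. Scn1a (Nav1.1), a TTX-sensitive channel of myelinated mechanosensory neurons, was 0.92 ± 0.46 log2 RPKM in lumbar and 1.48 ± 0.38 in sacral libraries (SD, n = 10 each) and was higher in sacral (-0.56, SE 0.16, adjusted p = 0.0080, limma). Scn2a1, the older symbol of the central nervous system channel gene Scn2a, did not pass (-0.31, SE 0.15, adjusted p = 0.095, limma).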
